A study of Mus musculus with 8 samples.

Results

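Binding of C/EBPα was described at the 6 mouse Fc receptor genes Fcgr1, Fcgr3, Fcgr4, Fcer1a, Fcer1g and Fcgr2b. It was measured by CUT&RUN, in which a nuclease tethered to an antibody releases the DNA beside the bound protein. Peaks deposited for 6 anti-C/EBPα libraries were joined into 259446 regions wherever they overlapped by at least 1 bp, and the 87 regions within 20 kb of the body of a listed gene (mm10) were kept. Of these 87 regions, 7 lay within reach of both Fcgr3 and Fcgr4, and each was counted once in the totals. The cells were Lin- KIThi-int FLT3+ progenitors sorted from mouse bone marrow, carrying the variant DC, the variant DE or the WT form of the -165 kb enhancer of Zeb2, the gene of a zinc-finger transcription factor that acts in dendritic and other myeloid fate choices. There were 2 libraries each for DC, DE and WT, 1 in each of 2 batches, and replicate numbers below are batch numbers. The labels describe DC and DE no further and give no age, sex or strain. They do not say whether the batches came from separate animals, so p-values measure the spread between these libraries only. A pair of IgG libraries from WT cells was not analysed here, so no antibody background can be set beside the values. CUT&RUN gives no RNA level, and whether the cells expressed any of these receptors cannot be read from it.

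Fc receptors bind the constant part of antibodies and link them to phagocytosis, degranulation and antigen uptake by myeloid cells. The activating receptors of this group signal through the chain encoded by Fcer1g, which carries an activation motif, while Fcgr2b carries an inhibitory motif of its own. C/EBPα is a basic leucine zipper factor needed for the granulocyte and monocyte lineages, and it often occupies enhancers beside PU.1, an ETS factor of the same lineages.

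The 250 bases upstream of the annotated start are shown for Fcgr3, the only listed gene with a region over its promoter in all 6 libraries, for Fcgr1, whose promoter region was called in 5 of them, and for Fcer1a, which had none. Of 17491 protein-coding genes with an annotated promoter, 25.3% had a region over it in all 6 libraries. The sequences are RefSeq's on GRCm38.p6 (mm10), at chr1:171059404-171059653, chr3:96293970-96294219 and chr1:173227230-173227479, and all 3 are written 5′ to 3′ on the minus strand, the strand of the genes. Capitals mark matches, on either strand, to the C/EBP motif TTGCNNAA (TTNNGCAA on the other strand) or to the PU.1 core GAGGAA, which reads TTCCTC on the other strand. Positions are counted from the annotated start, with -1 the base before it.
Fcgr3: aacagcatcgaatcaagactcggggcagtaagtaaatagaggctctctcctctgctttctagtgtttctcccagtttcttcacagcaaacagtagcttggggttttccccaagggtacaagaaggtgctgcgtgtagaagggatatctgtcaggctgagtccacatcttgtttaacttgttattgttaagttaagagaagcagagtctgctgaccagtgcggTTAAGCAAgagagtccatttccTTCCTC
Fcgr1: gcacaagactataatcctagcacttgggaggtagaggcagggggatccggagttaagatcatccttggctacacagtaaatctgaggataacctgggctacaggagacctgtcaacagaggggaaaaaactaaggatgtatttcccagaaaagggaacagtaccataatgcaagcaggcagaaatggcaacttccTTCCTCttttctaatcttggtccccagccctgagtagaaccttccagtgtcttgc
Fcer1a: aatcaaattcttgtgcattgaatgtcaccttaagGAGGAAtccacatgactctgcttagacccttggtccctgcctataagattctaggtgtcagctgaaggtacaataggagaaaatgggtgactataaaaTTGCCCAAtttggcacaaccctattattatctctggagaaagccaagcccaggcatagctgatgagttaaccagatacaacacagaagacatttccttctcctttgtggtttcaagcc
In Fcgr3 the C/EBP match, TTAAGCAA, lay at -28 to -21 and the PU.1 core at -6 to -1. Fcgr1 had a PU.1 core at -55 to -50 and no C/EBP match. Fcer1a had a C/EBP match at -118 to -111 and a PU.1 core at -216 to -211. The promoter of Fcgr4 held a PU.1 core alone, at -22 to -17, and those of Fcer1g and Fcgr2b held neither motif. Among 32851 RefSeq mouse promoter windows of 300 bases (250 upstream and 50 downstream), 10.8% held the C/EBP motif, 28.3% the PU.1 core and 0.183% the palindrome TTGCGCAA, which none of the 6 genes had. The motifs did not overlap each other in these promoters. A match describes letters, and no match says only that these letters are not in this window.

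The libraries differed in size and background. The peak lists held 169943 and 50221 peaks in DC replicates 1 and 2, 52474 and 57441 in DE, and 82080 and 56940 in WT. No file gives the number of reads, which leaves the sequencing depth unknown. The strength of a region is given here as its pileup, the number of fragments over the peak summit, worked out from the fold and p-value the authors deposited. It was scaled so that the typical region called in all 6 libraries had the same value in each. The factors were 1.61 and 0.647 for DC replicates 1 and 2, 1.19 and 0.876 for DE, and 0.983 and 0.944 for WT. A region not called in a library has no value there, which is not the same as a value of 0. Where genotypes are said below to overlap or to lie apart, this describes 2 libraries each and is no test. The share of all regions whose genotypes lie apart in the same way is not given here. Genes of the sort gate, Kit and Flt3, both had a region called in both libraries of each genotype, which says where the factor lay and nothing on their expression.

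C/EBPα lay near 5 of the 6 Fc receptor genes in every genotype, the exception being Fcer1a. Of the 87 regions, 34 were called in both DC libraries, 32 in both DE libraries and 30 in both WT libraries, against 14.0%, 12.9% and 12.1% of all regions, and 25 were called in all 6 libraries (9.05% of all regions). Having such a region within 20 kb was common: 66.9% of 21896 protein-coding genes had one in DC, 64.6% in DE and 63.5% in WT, with a median of 1 region per gene in each genotype. The remaining regions were often weak. A single library called 37 of the 87, with 5 to 17 fragments, and 15 of these 37 were called in DC replicate 1 alone, the library with the most peaks. Over the whole series DC replicate 1 alone called 113235 of 259446 regions, a larger share than 15 of 87 and also than 37 of 87. Regions of a single library were thus not more frequent here than in the whole series. Of the 87, 25 overlapped a listed gene body, 5 overlapped a promoter window, and 20 lay nearest to another gene. At the edge of the 20 kb window, the farthest region kept lay 19.9 kb from Fcgr2b, with 21.8 and 21.6 scaled fragments in DC replicates 1 and 2, 28.7 and 19.4 in DE, and 25.4 and 35.0 in WT. Just outside it, 20.3 kb upstream of Fcgr4 and on the same stretch between Fcgr2b and Fcgr4, a stronger region (chr1:170998084-170998663) had 166 and 122 scaled fragments in DC replicates 1 and 2, 170.4 and 115 in DE, and 143 and 137 in WT.

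**Figure D1:**
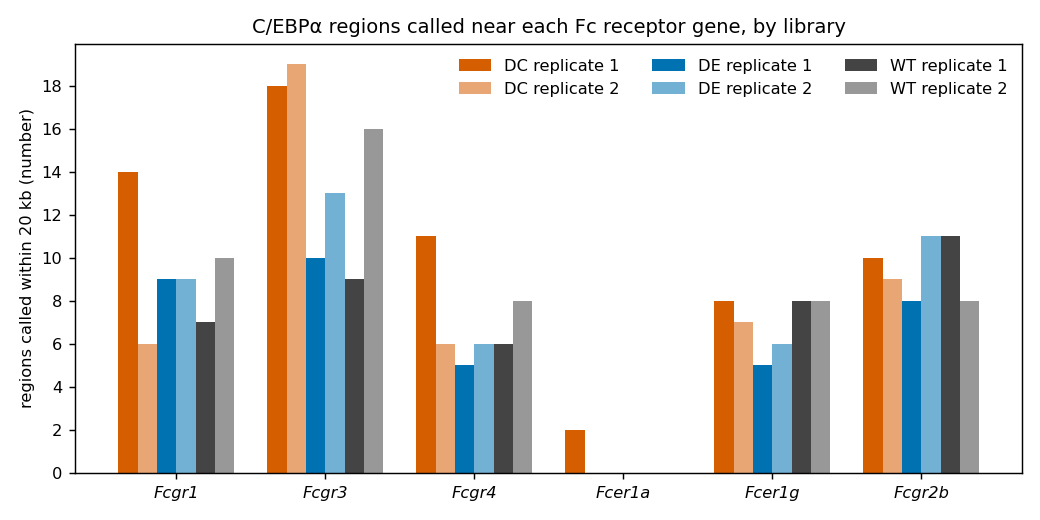
Number of C/EBPα regions called within 20 kb of each Fc receptor gene (vertical axis), with 1 bar per library in the order DC, DE, WT. Fcgr3 had the most regions, 18 and 19 in DC replicates 1 and 2, 10 and 13 in DE, and 9 and 16 in WT, and Fcer1a had 2, both in DC replicate 1.

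**Figure D2:**
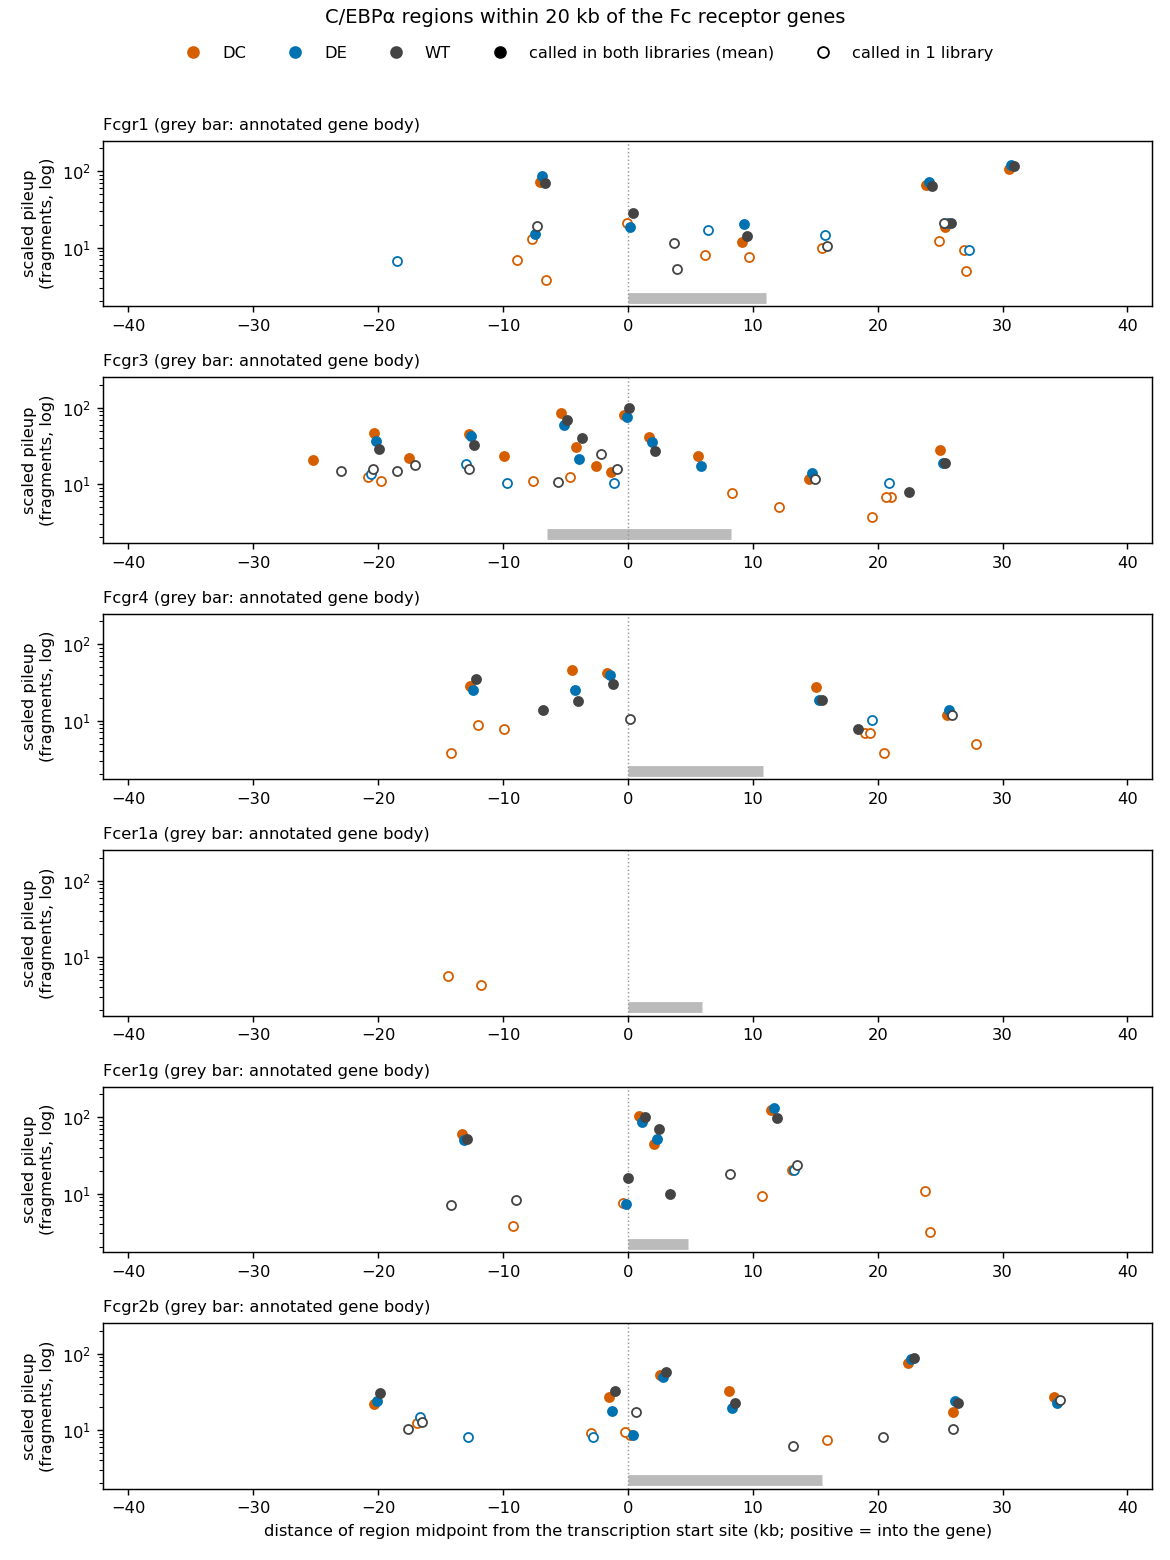
Scaled pileup in fragments (vertical axis, log scale) of each region against the distance of its midpoint from the start site in kb (horizontal axis), 1 panel per gene. Filled points are means over both libraries of a genotype that called the region and open points are regions called in 1 of the 2 libraries; most regions with a high pileup are filled in all 3 colours.

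The first group holds the activating receptors, Fcgr1, Fcgr3, Fcgr4 and Fcer1a. Fcgr3, a low-affinity receptor for IgG complexes on macrophages, neutrophils and NK cells, had 28 regions, the most of the listed genes. Of these, 14 were called in both DC libraries, 9 in both DE libraries and 8 in both WT libraries, and 0.575% of protein-coding genes had at least as many in DC, 2.74% in DE and 3.48% in WT. The gene lies at chr1:171051169-171065915 on the minus strand, and RefSeq's listed start at 171059403 is inside that interval. Regions upstream of this start can thus lie inside the gene body, as do those centred 2.3, 3.9 and 5.1 kb upstream. The region over the start (chr1:171059305-171059729) had 108 and 52.6 scaled fragments in DC replicates 1 and 2, 69.2 and 79.9 in DE, and 109.9 and 91.1 in WT. DC replicate 2 was the lowest library and the DC values spanned those of DE, while both DE values lay below both WT values. The second strongest region (chr1:171064059-171065014), centred 5.1 kb upstream of the start, had 95.9 and 74.2 in DC, 53.1 and 67.4 in DE, and 69.2 and 68.9 in WT. Both DC values lay above all others there, and both DE values lay below both WT values.

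At the start of Fcgr3 the peak summits sat close to the C/EBP match printed above. They lay at -32 and -43 in DC replicates 1 and 2, at -19 and -18 in DE, and at -35 and -29 in WT, so that no library was farther than 18.5 bases from the centre of the match. The median of this largest distance was 72.5 bases over 373 promoter windows that held 1 C/EBP match and a region called in all 6 libraries with every summit inside the window, and it was as small as at Fcgr3 in 26 of them (6.97%). Those windows could hold the match anywhere, while at Fcgr3 it lies just before the start. Whether the summits followed the match or the start was not tested. For Fcgr1 and Fcer1g, chosen after their values were seen, the start regions were weaker and lacked a call in DC replicate 2. Fcgr1 summits lay at -43 in DC replicate 1, at -60 and -25 in DE, and at -9 and -48 in WT. Those of Fcer1g lay at -7 in DC replicate 1, at -412 and -21 in DE, and at -4 and -63 in WT. Neither of these promoters held a C/EBP match, and most of their summits also lay near the start. Of 17491 protein-coding genes with a promoter window, 33.1% had a region over it in both DC libraries, 29.9% in both DE libraries and 29.8% in both WT libraries. In all 6 libraries 25.3% had one.

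**Figure D3:**
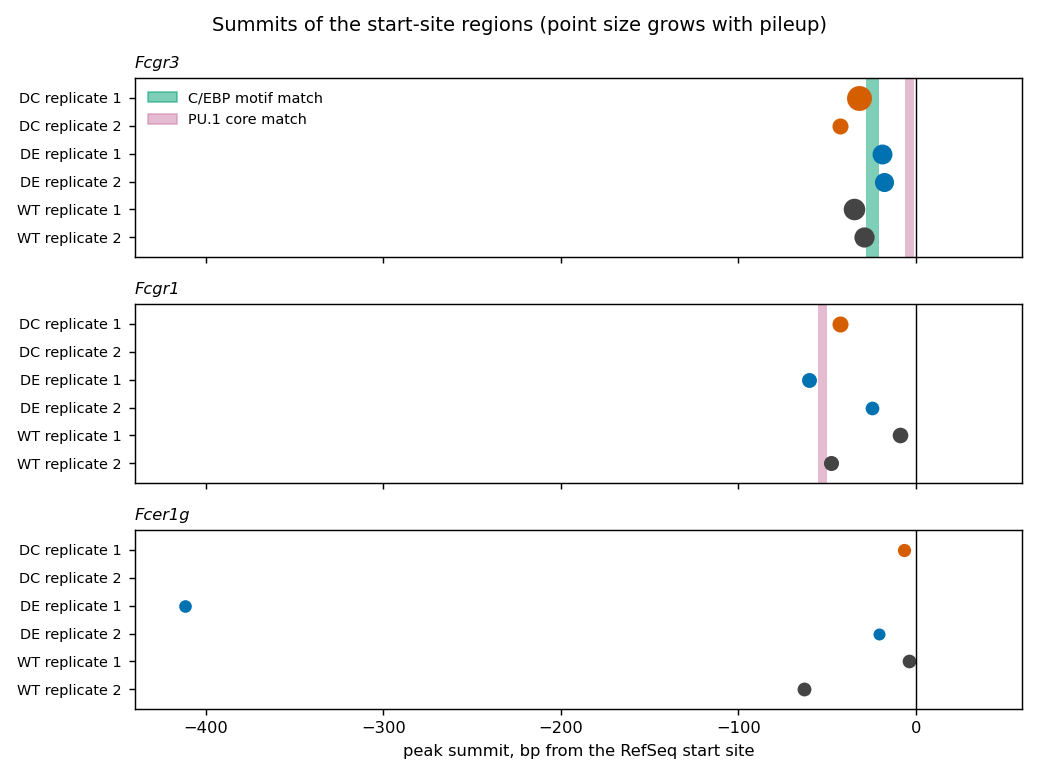
Position of each library's peak summit in bp from the RefSeq start site (horizontal axis) for the start regions of Fcgr3, Fcgr1 and Fcer1g, with point size growing with pileup and shaded bars for motif matches. All 6 summits of Fcgr3 lie within 18.5 bp of the centre of its C/EBP match, and DC replicate 2 has no point for Fcgr1 or Fcer1g.

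Farther upstream, Fcgr3 had a pair of regions that were higher in DC than in WT in each batch. The region centred 12.5 kb upstream (chr1:171071695-171072173) had 41.7 and 49.5 scaled fragments in DC replicates 1 and 2, 46.4 and 40.0 in DE, and 31.5 and 33.9 in WT. The region centred 20.2 kb upstream (chr1:171079320-171079787) had 46.7 and 46.4 in DC, 34.6 and 37.7 in DE, and 31.5 and 26.5 in WT. DC and WT did not overlap in either region, but the share of all regions that separate in this way is not given here. Neither difference passed the test given below (limma adjusted p = 0.494 and 0.272 with batch). Inside the gene, 1.9 kb past the start, a region named after its values were seen (chr1:171057303-171057610) had 45.5 and 37.1 in DC, 35.4 and 35.4 in DE, and 27.5 and 26.5 in WT. All values of both variants exceeded both WT values there too, and DC against WT did not pass (limma adjusted p = 0.368 with batch). Fcgr3 and Fcgr2b are close paralogs, and how reads that fit more than 1 place were handled is not given in the sources used here, so pileups inside their bodies are uncertain to that extent.

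Fcgr1, the high-affinity receptor for IgG on monocytes and macrophages (chr3:96282909-96293969, minus strand), had 18 regions, with 5 called in both DC libraries, 7 in both DE libraries and 6 in both WT libraries. At least as many lay near 16.5% of protein-coding genes in DC, 6.20% in DE and 8.46% in WT. Of the 5 called in all 6 libraries, 3 lay downstream of the gene at histone genes, H4c14, H3c13 and H2bc18, and are near Fcgr1 by position only. The strongest of them, at H4c14 (chr3:96262707-96263818), had 126 and 91.2 scaled fragments in DC replicates 1 and 2, 111 and 131 in DE, and 117 and 117 in WT. The region at H2bc18 (chr3:96269393-96270340) had 58.5 and 74.2 in DC, 59.0 and 85.6 in DE, and 40.7 and 85.8 in WT. At H3c13 (chr3:96268016-96268688) the values were 10.6 and 26.3 in DC, 15.2 and 27.4 in DE, and 23.4 and 19.1 in WT. At all 3 histone regions the genotypes overlapped.

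The strongest region on the Fcgr1 side, 6.9 kb upstream of its start (chr3:96300513-96301126), had 68.5 and 77.3 scaled fragments in DC replicates 1 and 2, 97.9 and 77.7 in DE, and 64.1 and 74.2 in WT. Both DE values lay above all others, by less than 1 fragment at the nearest, and DC and WT overlapped. The start region itself (chr3:96293465-96294104) had 21.2 in DC replicate 1, no call in DC replicate 2, 20.2 and 17.1 in DE, and 30.5 and 26.5 in WT. Both WT values were the highest there. DC could not be tested, as it lacked a call in 1 library, and among regions called in all DE and WT libraries DE differed from WT by -0.59 ± 0.43 (SE, log2 scale; limma adjusted p = 0.999 without batch and 0.66 with it).

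Fcgr4, an activating receptor for IgG of myeloid cells (chr1:171018926-171029761, plus strand), had 15 regions, with 5 called in both DC libraries, 5 in both DE libraries and 6 in both WT libraries. At least as many lay near 16.5% of protein-coding genes in DC, 13.8% in DE and 8.46% in WT. The start region of Fcgr4, named after its values were seen, was called in WT replicate 2 alone, with 10 fragments before scaling. The region centred 4.2 kb upstream of the start (chr1:171014566-171014811) had 38.0 and 52.6 scaled fragments in DC replicates 1 and 2, 15.2 and 35.4 in DE, and 19.3 and 17.0 in WT. Both DC values were above both WT values and also above both DE values, while DE overlapped WT. A region 1.5 kb upstream (chr1:171016858-171018088) had 36.7 and 47.9 in DC, 46.4 and 32.0 in DE, and 23.4 and 36.0 in WT. Here DC replicate 1 exceeded WT replicate 2 by less than 1 fragment, and DE overlapped both. The region 12.4 kb upstream (chr1:171006367-171006635) had 31.1 and 26.3 in DC, 22.8 and 27.4 in DE, and 14.2 and 55.1 in WT. The pair of WT libraries lay farther apart there than any DC or DE library lay from another. In the last, centred 15.3 kb past the start and shared with the Fcgr3 window (chr1:171033767-171034648), the values were 15.6 and 40.2 in DC, 13.5 and 24.0 in DE, and 22.4 and 14.8 in WT, and the genotypes overlapped.

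Fcer1a encodes the IgE-binding chain of the high-affinity IgE receptor of mast cells and basophils (chr1:173221269-173227232, minus strand). It had 2 regions, both called in DC replicate 1 alone, 11.5 and 14.2 kb upstream of the start, with 7 and 9 fragments before scaling (4.36 and 5.61 after it). In the other 5 libraries no region was called within 20 kb, which does not show that the factor was absent. The C/EBP match in its promoter, printed above, therefore had no called region over it.

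Fcer1g encodes the signalling chain shared by these receptors (chr1:171229572-171234349, minus strand). It had 14 regions, with 5 called in both DC libraries, 5 in both DE libraries and 6 in both WT libraries. At least as many lay near 16.5% of protein-coding genes in DC, 13.8% in DE and 8.46% in WT. The strongest region inside the gene, 1.1 kb past the start (chr1:171232900-171233580), had 111 and 97.4 scaled fragments in DC replicates 1 and 2, 96.2 and 77.7 in DE, and 122 and 80.5 in WT. Both DC values lay above both DE values, by little more than 1 fragment at the nearest, and WT overlapped each variant. A second region, 2.3 kb past the start (chr1:171231824-171232267), had 34.3 and 55.7 in DC, 60.7 and 42.3 in DE, and 54.9 and 85.8 in WT. WT was the highest genotype within batch 2, and in batch 1 DE replicate 1 was the highest. The start region (chr1:171234257-171234804) had 7.47 in DC replicate 1, no call in DC replicate 2, 7.59 and 6.85 in DE, and 15.3 and 17.0 in WT, so that both WT values were above every called value of the variants. DC could not be tested there either, and among regions called in all DE and WT libraries DE differed from WT by -1.14 ± 0.41 (SE, log2 scale; limma adjusted p = 0.952 without batch and 0.214 with it). The DE replicate 1 summit lay at -412 and the WT summits at -4 and -63, so this library was measured at another site. Before scaling the pileups were low, 9 and 6 fragments in DE and 15 and 16 in WT. The smallest called pileups in DE replicates 1 and 2 were 7 and 4.

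Another region of the Fcer1g window called in all libraries lay at the neighbouring genes Tomm40l and Apoa2. It (chr1:171222407-171222873) had 81.0 and 164 scaled fragments in DC replicates 1 and 2, 123 and 143 in DE, and 64.1 and 132 in WT. Replicate 2 was above replicate 1 in every genotype, and the genotypes overlapped.

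The inhibitory receptor gene Fcgr2b, whose product dampens activating receptors and the B cell receptor (chr1:170960558-170976071, minus strand), had 17 regions. Of these, 7 were called in both DC libraries, 8 in both DE libraries and 6 in both WT libraries. At least as many lay near 7.52% of protein-coding genes in DC, 4.06% in DE and 8.46% in WT. The start region of Fcgr2b, likewise named after its values were seen, was called in DC replicate 1 alone, with 15 fragments before scaling. The strongest region of the window lay 22.7 kb past the start, downstream of the gene and nearest to Gm39701 (chr1:170953169-170953626), with 81.6 and 68.0 scaled fragments in DC replicates 1 and 2, 84.4 and 87.9 in DE, and 94.6 and 79.5 in WT. Inside the gene, 2.8 kb past the start (chr1:170973036-170973455), the values were 57.3 and 47.9 in DC, 56.5 and 41.1 in DE, and 54.9 and 59.3 in WT. The genotypes overlapped inside the gene, while in the downstream region both DC values lay below both DE values and WT overlapped each variant. Another, 8.3 kb past the start (chr1:170967588-170967883), had 25.5 and 40.2 in DC, 13.5 and 25.1 in DE, and 18.3 and 26.5 in WT. DC and DE separated there by less than 1 fragment. The region at the edge of the window, 20.1 kb upstream of the start, was given above.

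**Figure D4:**
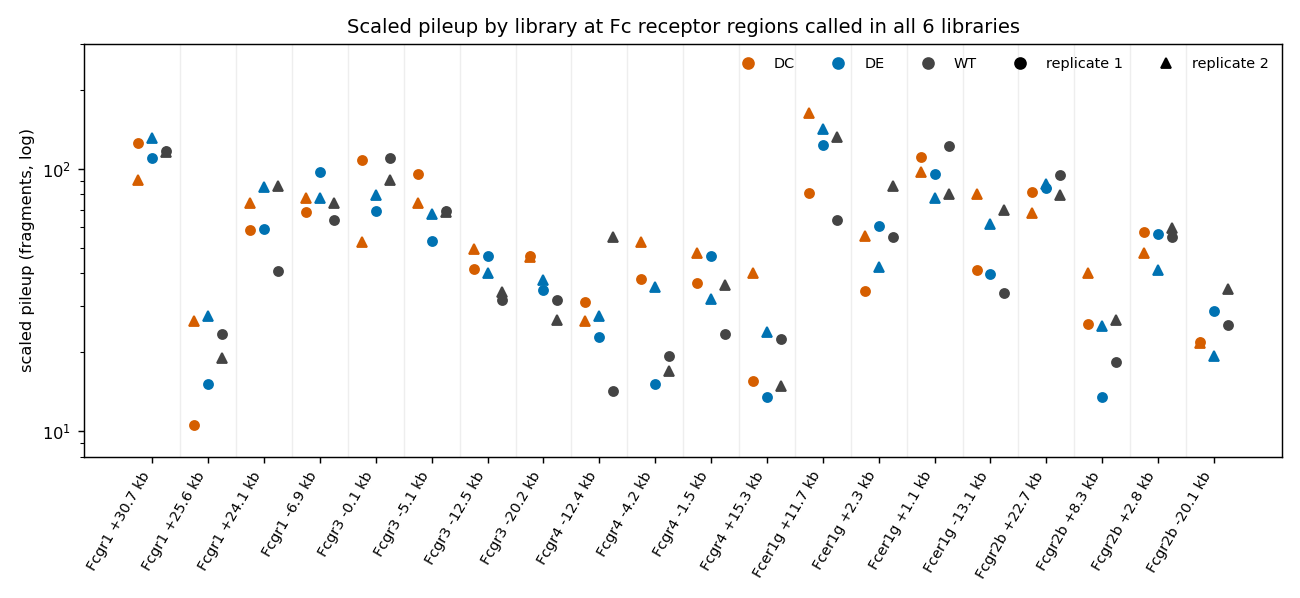
Scaled pileup in fragments (vertical axis, log scale) by library for the 4 regions with the highest mean among those called in all 6 libraries near each gene other than Fcer1a, labelled by the distance of their midpoint from the start site. The region 4.2 kb upstream of Fcgr4 has both DC points above all others, at 38.0 and 52.6 fragments, while its DE points, at 15.2 and 35.4, overlap its WT points, at 19.3 and 17.0.

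The first comparison set DC against WT and asked whether C/EBPα binding near Fc receptor genes differed with the DC variant. None of the 25 regions called in all libraries passed limma's test without batch (adjusted p under 0.05), and neither did any of the 23480 regions tested in all, 0% higher and 0% lower; at an unadjusted p under 0.05 there was 1 Fc receptor region, against 4.89% of all regions higher and 3.07% lower. The libraries of a batch deviated together, and with batch as a term 1 of the 25 was higher in DC and 0 lower, against 3.15% and 1.15% of all regions. That region lay 4.2 kb upstream of Fcgr4. It was 1.30 ± 0.38 higher in DC than in WT on the log2 scale (SE, n = 2 each; limma adjusted p = 0.0259 with batch and 0.494 without). Within batches the DC to WT ratio of scaled fragments was 1.97 in batch 1 (95% exact interval 1.16 to 3.48) and 3.10 in batch 2 (1.67 to 6.02), where the intervals cover counting error only. The call was lost in 3 of 6 runs that left out a library: without DC replicate 1 the difference was 1.28 (limma adjusted p = 0.273), without DC replicate 2 it was 1.33 (0.272), and without WT replicate 2 it was 0.79 (0.529).

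The other 24 Fc receptor regions did not pass in DC against WT. Over all 25 the log2 differences ran between -0.65 and 1.30, with a median of 0.07 against -0.02 over all regions tested. Of the 25, 14 were above 0, against 48.2% of all regions tested. With batch as a term 3 had an unadjusted p under 0.05, 2 higher and 1 lower, against 9.28% and 7.68% of all regions. Beside the Fcgr4 region these were the Fcgr3 region 20.2 kb upstream, with 0.69 ± 0.33 SE (limma adjusted p = 0.272), and the Fcer1g region 2.3 kb past the start, with -0.65 ± 0.30 (0.238). The start region of Fcgr3 differed by -0.41 ± 0.26 (limma adjusted p = 0.461 with batch), and its DC to WT ratio was 0.986 in batch 1 and 0.577 in batch 2. These regions are not shown to be alike in DC and WT: the interval of the Fcgr3 start region ran from -0.93 to 0.11 on the log2 scale with batch as a term. Scaling the libraries by their background floor, the smallest local background in a library, moved the median of all regions to 0.84. All 25 differences were then above 0, as were 96.2% of those of all regions tested.

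**Figure D5:**
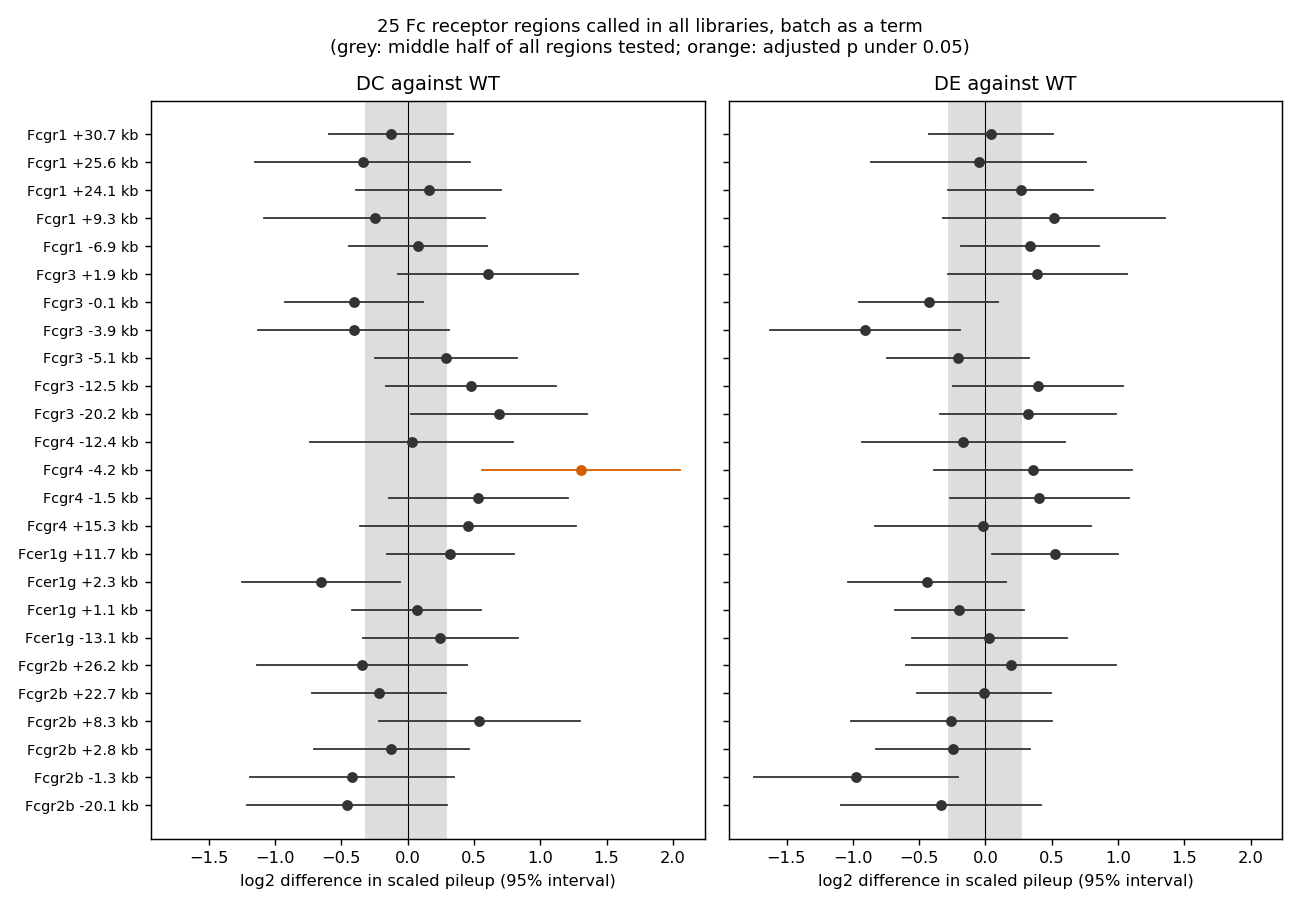
Log2 difference in scaled pileup (horizontal axes, with 95% intervals) of the 25 regions called in all 6 libraries, DC against WT on the left and DE against WT on the right, from limma with batch as a term; the grey band holds the middle 50% of all regions tested. The region 4.2 kb upstream of Fcgr4 stands at 1.30 in DC, drawn in orange as the only region with an adjusted p under 0.05, and at 0.36 in DE.

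The second comparison set DE against the same WT libraries, so the comparisons are not independent. None of the 25 regions passed with limma, without batch (0% of all regions) or with it (1.12% higher and 0.268% lower). At an unadjusted p under 0.05 there were 0 of 25 without batch, against 3.04% higher and 1.84% lower, and 3 with batch, 1 higher and 2 lower, against 6.79% and 5.21%. The 3 were the region at Tomm40l and Apoa2, with 0.53 ± 0.24 SE (limma adjusted p = 0.343), a region 3.9 kb upstream of the Fcgr3 start, with -0.91 ± 0.36 (0.239), and a region 1.3 kb upstream of the Fcgr2b start, with -0.98 ± 0.39 (0.233). Both of the lower regions were named after their values were seen. That at Fcgr3, inside the gene body (chr1:171063200-171063459), had 41.1 and 20.1 scaled fragments in DC replicates 1 and 2, 27.8 and 14.8 in DE, and 50.9 and 28.6 in WT. Its DE to WT ratio was 0.547 in batch 1 and 0.519 in batch 2. That at Fcgr2b (chr1:170977186-170977472) had 40.5 and 13.9 scaled fragments in DC replicates 1 and 2, 25.3 and 10.3 in DE, and 39.7 and 25.4 in WT. DE was the lowest genotype in each batch at both regions, and the ratio at Fcgr2b was 0.638 in batch 1 and 0.404 in batch 2. The median difference of the 25 was -0.01 in DE against 0.00 over all regions, and 12 were above 0, against 49.6% of all regions.

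At the Fcgr4 region 4.2 kb upstream, DE differed from WT by 0.36 ± 0.38 SE on the log2 scale with batch as a term. Its DE to WT ratio was 0.785 in batch 1 (95% exact interval 0.389 to 1.58) and 2.09 in batch 2 (1.11 to 4.09), so the batches went opposite ways. The last comparison, DC against DE, asked whether the variants differed from each other. None of the 25 regions passed with limma, without batch (0% of all regions higher and lower, with 0 of 25 at an unadjusted p under 0.05 against 1.15% higher and 1.21% lower) or with it (0.00852% higher and 0.0213% lower). With batch, 2 of the 25 had an unadjusted p under 0.05, both higher in DC, against 4.03% of all regions higher and 4.13% lower: the Fcgr4 region, with 0.95 ± 0.38 (limma adjusted p = 0.479), and the Fcgr2b region 8.3 kb past the start, with 0.80 ± 0.38 (0.578).

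Regions that lacked a call in some library could not enter those tests and are described by their calls. The WT pair shared 30 regions, and 3 of them had no call in DC and the same 3 had none in DE, or 10% against 3.23% of all such regions for DC and 5.28% for DE. All 3 were weak in WT. The region of the Fcgr3 and Fcgr4 windows (chr1:171037021-171037243) had 7.12 and 8.48 scaled fragments in WT replicates 1 and 2, that upstream of Fcgr4 (chr1:171011804-171011930) had 17.3 and 10.6, and that inside Fcer1g (chr1:171231084-171231260) had 12.2 and 7.42.

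In the other direction, 3 of 34 regions called in both DC libraries had no call in WT, or 8.82% against 10.9% of all such regions, and 1 of 32 called in both DE libraries had none, or 3.13% against 6.55%. All 3 lay at Fcgr3. One inside the gene, 5.9 kb past the start (chr1:171053409-171053687), had a call in each of the 4 libraries of the variants, with 13.7 and 32.5 scaled fragments in DC replicates 1 and 2 and 17.7 and 17.1 in DE. Of the others, the region 9.7 kb upstream (chr1:171069010-171069164) had 21.8 and 24.7 in DC and 10.3 in DE replicate 2. The region 24.97 kb upstream (chr1:171084259-171084495) had 11.8 and 29.4 in DC and no call in DE. Between the variants, 3 of 34 regions called in both DC libraries had no call in DE, against 7.31% of all regions, and 0 of 32 went the other way, against 2.14%. Besides the region 24.97 kb upstream these were, all at Fcgr3, 1 region 2.3 kb upstream of the start (chr1:171061599-171061880; 19.3 and 15.5 in DC and 24.4 in WT replicate 1) and 1 region 17.3 kb upstream (chr1:171076623-171076792; 18.1 and 26.3 in DC and 18.0 in WT replicate 2). With 1 to 3 regions in each class these shares have no test.

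Genes of the pathway around these receptors are given beside the 66.9% of all protein-coding genes with a region called in both DC libraries, the 64.6% in DE and the 63.5% in WT. Of 16 genes of activating signalling, such as Syk, Lyn, Vav1 and Plcg2, all 16 had a region called in both libraries of each genotype, as did all 8 genes of inhibitory signalling, such as the phosphatase genes Inpp5d and Ptpn6. Of 8 genes for signalling adaptors, such as Tyrobp, or for receptors that pair with the Fcer1g chain, such as Clec4e, 7 had one in DC, 8 in DE and 7 in WT, and Gp6, a platelet collagen receptor, was the one without in DC and WT. Of 12 other genes for antibody-binding or Fc receptor-like proteins, 9 had one in DC, 8 in DE and 9 in WT. Fcmr, Fcamr and Pigr, which bind IgM or IgA, had none in any genotype.

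Without batch none of the tested regions of these 4 lists passed in any comparison (limma; 27, 27, 89 and 33 regions for other antibody-binding genes, adaptor and pairing receptor genes, activating genes and inhibitory genes). With batch as a term, 2 rose and 2 fell in DC among the other antibody-binding genes, 3 rose and 1 fell among activating genes, 0 rose and 1 fell among inhibitory genes, and none passed among adaptor and pairing receptor genes, against 3.15% and 1.15% of all regions. In DE against WT, 2 fell near other antibody-binding genes and 1 rose near an activating gene, against 0.268% lower and 1.12% higher among all regions. The list medians in DC against WT were -0.07 for other antibody-binding, -0.09 for adaptor and pairing receptor, -0.10 for activating and 0.07 for inhibitory genes, beside -0.02 over all regions. Those in DE were -0.06, -0.20, -0.08 and -0.04 in the same order, beside 0.00.

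Of the 10 regions called with batch near these lists, 6 lay inside or nearest to a gene outside them. Inside listed genes, a region of Pik3r1, the regulatory subunit of PI3 kinase, rose in DC by 1.79 ± 0.41 (SE, log2 scale; limma adjusted p = 0.0027). Its scaled pileup was 36.7 and 30.9 fragments in DC replicates 1 and 2, 14.3 and 24.0 in DE, and 11.2 and 8.48 in WT. At Lcp2, the gene of the adaptor SLP-76, a region 10.2 kb from the gene rose in DC (0.98 ± 0.23) and in DE (0.99 ± 0.23), with 138 and 170.1 in DC, 148 and 161 in DE, and 68.2 and 87.9 in WT, while a region inside the gene fell in DC (-1.43 ± 0.41). Both variants were above both WT libraries at the first of these. A region overlapping Fcrlb, also in the window of Fcrla, fell in DC (-0.99 ± 0.31). The remainder lay 9.5 to 19.9 kb from the listed gene, nearer to or inside another. In DC they were a region inside Ms4a3 near Ms4a2 (1.07 ± 0.28), 1 near Fcrl5 but nearest to Etv3 (1.39 ± 0.42), 1 inside Rcn3 near Fcgrt (-0.99 ± 0.31), 1 inside Rfc2 near Lat2 (0.87 ± 0.25) and 1 inside Htra2 near Dok1 (-1.37 ± 0.39). In DE they were the Rcn3 region (-1.21 ± 0.31) and 1 near Fcer2a but nearest to Fcor (-1.59 ± 0.39). None of these 12 calls held in all 6 runs that left out a library.

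Marker genes of cell types that carry Fc receptors are set beside the same shares of all protein-coding genes. A region called in both libraries lay near 6 of 6 mast cell and basophil genes in DC, 5 in DE and 5 in WT, near all 5 monocyte and neutrophil genes and all 4 B cell genes in each genotype, and near 2 of 3 NK cell genes in DC, 3 in DE and 3 in WT. With batch as a term, 2 of 22 tested regions near monocyte and neutrophil genes rose in DC and 1 in DE, against 3.15% and 1.12% of all regions, and the list medians were 0.02 in DC and 0.01 in DE. All of these calls were near the monocyte gene Ly6c2. The region called in both variants rose in DC (2.16 ± 0.36; limma adjusted p = 1.47e-05), a call kept in all 6 runs that left out a library, and in DE (1.67 ± 0.36; 0.00273), a call lost without DE replicate 1, DE replicate 2 or WT replicate 2. Its scaled pileup was 62.9 and 46.4 fragments in DC replicates 1 and 2, 46.4 and 32.0 in DE, and 17.3 and 8.48 in WT. Of 11 regions near mast cell and basophil genes 1 rose in DC, the one inside Ms4a3, and of 11 near B cell genes 1 fell in DE, the one nearest to Fcor. None of 13 near NK cell genes passed in limma's test with batch. In bulk cells a different mix of cells and different binding per cell cannot be told apart, and the part of such a mix in the Fcgr4 difference was not tested.

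For the strongest region of each gene called in all 6 libraries, the 3 genes with the most similar profile among 12647 protein-coding genes were Riiad1 (Pearson r = 0.994 over 6 libraries), Hip1r and Armc1 for Fcgr3. For Fcgr2b, whose strongest region is nearest to Gm39701, they were Npc2 (0.991), Arid5b and Mpp6, for Fcgr4 Ankrd33b (0.982), Poll and Ccdc142, and for Fcer1g, whose strongest region is the one at Tomm40l and Apoa2, the most similar was Fbxo48 (0.992). For Fcgr1, whose strongest region is the one at H4c14, they were Ttc7b (0.968), T2 and Nbn. With 6 points that share libraries and scaling, such values are frequent: between 61 and 570 genes exceeded an r of 0.9 for each of these regions.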

How the data were processed

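C/EBPα was profiled in 6 libraries, 2 for each of DC, DE and WT. The submitters' processing notes list MACS2 2.2.9.1, HOMER, Bowtie2, Trimmomatic and SAMtools, and build mm10; the role of each and the control for the peak calls are not given in the sources used here. In the deposited peak lists, called per library at a q of 0.1, the authors give each peak a fold over local background (a ratio), a −log10 p-value, a −log10 q-value and a score, the −log10 q times 10 without its decimals. The deposited merged table holds coordinates only and was not used.

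Peaks were joined with Python 3.11.15 and pandas 2.3.3 into 259446 regions. The pileup k and background λ were solved from the fold, (k + 1)/(λ + 1), and the Poisson p-value; in at least 99.986% of the peaks of each list k came out whole, to within 0.05. The 23480 regions present in every library set the scale, by the median of their log2 differences from the region's mean, and were compared with limma 3.58.1 in R 4.3.3 (variance trend, Benjamini-Hochberg over all 23480), without batch as the main design and with it as an alternative. The fit without batch was run on simulated data that held no batch effect. That run does not show how the fit performs where batches deviate together. Some items withheld for evaluation are not reported here. The labels give the batch numbers, so batches pair the samples; batch deviations correlated across regions with r of 0.548 between DC and WT, 0.415 between DE and WT and 0.383 between DC and DE. With unknown depth, intervals of ratios cover counting error only.

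Gene positions and promoters came from RefSeq tables of the same assembly. Regions were given in full where they were among the 4 of a gene called in most libraries, then by pileup, or called in both libraries of a genotype and neither of another; others named, start regions included, were chosen after their values were seen. The genes, lists and motifs were chosen with earlier results of these data known. Other windows, a q of 0.01, cover of 50% of a region, a pseudocount of 5, floor scaling, the fold in place of the pileup and leaving out each library were tried as alternatives.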

Additional observations from a re-analysis of the deposited data

How the results depend on the processing

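With 1 library in place of 2, the number of Fc receptor regions called was 45 to 57 in DC, 35 to 42 in DE and 39 to 47 in WT. A window of 5 kb gave 17 in DC, 17 in DE and 16 in WT, a window of 50 kb gave 51, 50 and 47, and asking peaks to cover 50% of a region gave 26 in DC, 24 in DE and 17 in WT. The number of genes with a region, 5 of 6, was the same under every alternative except with DC replicate 1 alone, which gave 6.

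With the replicate block (batch as a term), 1008 regions passed in DC against WT, 327 in DE against WT and 7 in DC against DE, where 0 passed without it, and the Fc receptor regions passing were 1, 0 and 0. Floor scaling with the block gave 673, 6 and 0 regions, and regions called in the 4 libraries compared, with the block, an alternative chosen after seeing the data, gave 937, 254 and 44; each kept 1 Fc receptor region in DC, that upstream of Fcgr4. Runs leaving out a library, with a lone library assumed to vary like the other genotypes, gave with the block 192 to 1222 regions in DC against WT, 97 to 258 in DE against WT and 0 to 31 in DC against DE, and 0 to 1 Fc receptor regions in DC; without the block they gave 0 to 4, 0 and 0 regions, and 0 Fc receptor regions. Without a block, floor scaling, a pseudocount of 5, a q of 0.01 and the fold in place of the pileup left 0 regions in each comparison.

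Floor scaling adds the same amount to every region of a comparison, which by itself turned DC against WT to 0.73 at the Fcgr1, 0.64 at the Fcgr2b and 0.45 at the Fcgr3 region with the highest mean, and DE against WT to 0.54 at Fcgr2b and 0.12 at Fcgr3. Setting the scale on the regions called in 4 libraries gave 0.01 at Fcgr2b in DE. Single regions that missed the threshold also changed sign between runs leaving out a library, and the cause was not tested: the ranges were, in DC, -0.20 to 0.85 at the Fcer1g region by Tomm40l and Apoa2, -0.42 to 0.17 at Fcgr1 and -0.93 to 0.12 at Fcgr3, and, in DE, -0.20 to 0.29 at Fcgr1, -0.17 to 0.15 at Fcgr2b, -0.86 to 0.00 at Fcgr3, and -0.25 to 0.97 and -0.11 to 0.93 at the Fcgr4 regions 4.2 and 1.5 kb upstream. Floor scaling with the block gave 2.16 at the Fcgr4 region 4.2 kb upstream in DC (limma adjusted p = 0.023). Pileups under about 10 fragments, and regions without a call, set no limit on binding, since the read depth is unknown.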
